A study of Caenorhabditis elegans with 15 samples.

Results

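The genes described here are the short-chain dehydrogenases of Caenorhabditis elegans that carry the protein family label PF00106, the classical short-chain dehydrogenase fold. They were chosen from the description column of the deposited gene table. Of 47111 genes in that table, 49 carry the label, and 47 remain after dhs-3 and dhs-28, 2 peroxisome or lipid droplet genes, were set aside. RNA was measured in young adults of 5 genotypes with 3 libraries each: the wild type N2 and 4 strains with an allele of puf-8, written in the labels as puf-8(ust221)(MUT-4A), puf-8(ust222)(MUT-4N), puf-8(ust223)(MUT-8G) and puf-8(ok302). PUF-8 is a Pumilio-family RNA-binding protein that binds the 3′ ends of mRNAs and acts mainly in the germline; the codes after the ust alleles are given as labelled and not interpreted. All animals were synchronised as newly hatched larvae and kept at 20 °C on Escherichia coli OP50, and polyadenylated RNA of whole animals was sequenced with a kit that does not mark strand. The labels do not tell whether libraries of 1 genotype are separate cultures or how many animals went into each, and p-values may therefore reflect technical spread only.

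Short-chain dehydrogenases are enzymes that move hydride between a nicotinamide cofactor (NAD or NADP) and an alcohol or ketone group, and they share a nucleotide-binding fold and a catalytic tyrosine and lysine. Across animals they act on steroids, retinoids, fatty acyl chains, sugars and foreign chemicals. In C. elegans the family includes enzymes of fatty acid elongation, of the synthesis of dafachronic acid, the steroid hormone ligand of the nuclear receptor DAF-12, and of cofactor recycling. For most members, most of the dhs genes among them, no substrate is given here because none is securely known.

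Library totals ranged from 20969800 to 29352254 counts, and the 47 genes together held 0.115% to 0.174% of the counts of a library. The targeted gene puf-8 held 7, 11 and 3 counts in the ok302 libraries and 737 to 5008 counts in the other 12 libraries. Libraries of 2 genotypes stood apart. In N2 replicate 1 and ust222 replicates 1 and 3, the CPM (counts scaled to the size of the library) of 21 sperm genes summed to 22.7, 28.2 and 28.5, against 90.1 to 274 in the other 12 libraries. Summed CPM of 12 molting genes was 503, 559.8 and 572 in these 3 libraries, against 57.7 and 61.2 in the other N2 libraries and 51.0 in the other ust222 library. The molting sums were 332 to 507 in ok302, 161 to 249 in ust223 and 34.3 to 53.7 in ust221. Each test below was therefore repeated in the 12 libraries without those 3, where ust222 is replicate 2 alone and is assumed to vary like the other genotypes. In the 12 libraries the remaining N2 molting sums, 57.7 and 61.2, lie below those of every ok302 and ust223 library. The median log2 fold change of the 12 molting genes in ok302 against N2 was 1.11 in the 15 libraries and 3.23 in the 12. The part of this molting difference in the 12-library results was not tested. Oocyte markers also moved with ok302: 16 of 18 fell, and their summed CPM was 5558 to 7450 in ok302 against 12517 to 17183 in N2. In ust221, 6 of the 18 fell and the sum was 8805 to 12213. Summed CPM of 10 intestine markers was 2427 to 3696 in ok302, 2047 to 3654 in ust221, 2099 to 3109 in ust223, 1716 to 1779 in ust222 and 1803 to 2020 in N2. Of the 10, 8 had a positive log2 fold change against N2 in ok302, 7 in ust221 and 5 in ust223. The medians were 0.32, 0.35 and -0.15. In these alleles 2, 0 and 1 of the markers rose and 1, 0 and 0 fell. The 10 male soma markers summed to 23.5 to 33.7 CPM in ok302 and 5.54 to 8.06 in N2 and 9.74 to 19.2 in ust223. The 9 hypodermis markers summed to 3213 to 6749 CPM in ust221 and 1479 to 2853 in N2. In ust221, though, 7 of the 9 had a negative log2 fold change, with a median of -1.43, and of the 9 markers 0 rose and 1 fell. In ust223 they summed to 730 to 891 CPM, with 7 of the 9 negative, a median of -0.37 and 0 called. The 10 muscle markers summed to 3113 to 3683 CPM in ust223, 5184 to 8972 in ust221 and 3849 to 5986 in N2; 5 of 10 were lower in ust223 than in ust221. In whole animals a smaller number of cells of a type and less RNA per cell cannot be told apart, and the part of tissue makeup in the results below was not tested.

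The 47 genes are spread over all 6 chromosomes of the table, with 21 on chromosome V, which holds 44.7% of them and 24.7% of all protein-coding genes. Gene lengths in the table run from 648 to 1853 bases. A second protein domain is listed for 3 of them: a sterol carrier domain in dhs-6, a domain of unknown function in dhs-29 and a second dehydrogenase label, PF13561, in WBGene00086558, which has no symbol and is a pseudogene in the reference annotation. Neighbours at most 10000 bases apart form 6 groups with 15 members. The largest is a run of 5 genes on 1 strand of chromosome V between 11512313 and 11520530 (coordinates of the deposited table, which names no genome build), in the order C55A6.3, C55A6.6, sdz-8, C55A6.4 and C55A6.7, with no other coding gene inside its 8.22 kb. The pairs are dhs-7 with E04F6.15, dhs-8 with K10H10.6, F20G2.1 with F20G2.2, stdh-3 with stdh-1, and dhs-30 with T25G12.13. Inside the dhs-8 pair and the dhs-30 pair lie 2 other coding genes each. Overlap with another coding gene was found for 13 members, on the opposite strand for 10 of them, and reads from such overlaps cannot be assigned to a strand.

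Levels in N2 are given in CPM per kb of gene length, the scale on which levels of different genes are compared. The 2 highest were let-767, a ketoacyl-CoA reductase needed for long-chain and branched-chain fatty acids, at 235 ± 62.3 CPM per kb, and ard-1, the counterpart of a mitochondrial hydroxysteroid dehydrogenase of humans, at 212 ± 40.9 (mean ± SD, n = 3). The SDs of these 2 overlap. Next, with intervals of ± SD that overlap neither each other nor those above, came dhs-22 at 134 ± 29.8 and qdpr-1, which recycles the pterin cofactor of aromatic amino acid hydroxylases, at 69.4 ± 5.68. The next genes were dhs-12 at 54.5 ± 14.9, dhs-1 at 54.4 ± 19.9, Y37E11AM.3 at 42.3 ± 13.8, dhs-6 at 41.2 ± 6.79, F20G2.2 at 34.5 ± 9.94 and H04M03.3 at 33.8 ± 0.952, and neighbours within these 6 overlapped within their SD. These 10 genes held 78.1% of the summed CPM per kb of the 47. At the other end, 8 genes were under 1 CPM per kb, dhs-26 among them at 0.422 ± 0.222. Too few counts for the test were found for 4 genes: stdh-3, stdh-4, ZK697.14 and K10H10.6. The most counts any library held was 11 for stdh-3, 7 for stdh-4, 18 for ZK697.14 and 11 for K10H10.6, each in an ok302 library. The other 43 were tested among 17217 genes.

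**Figure D1:**
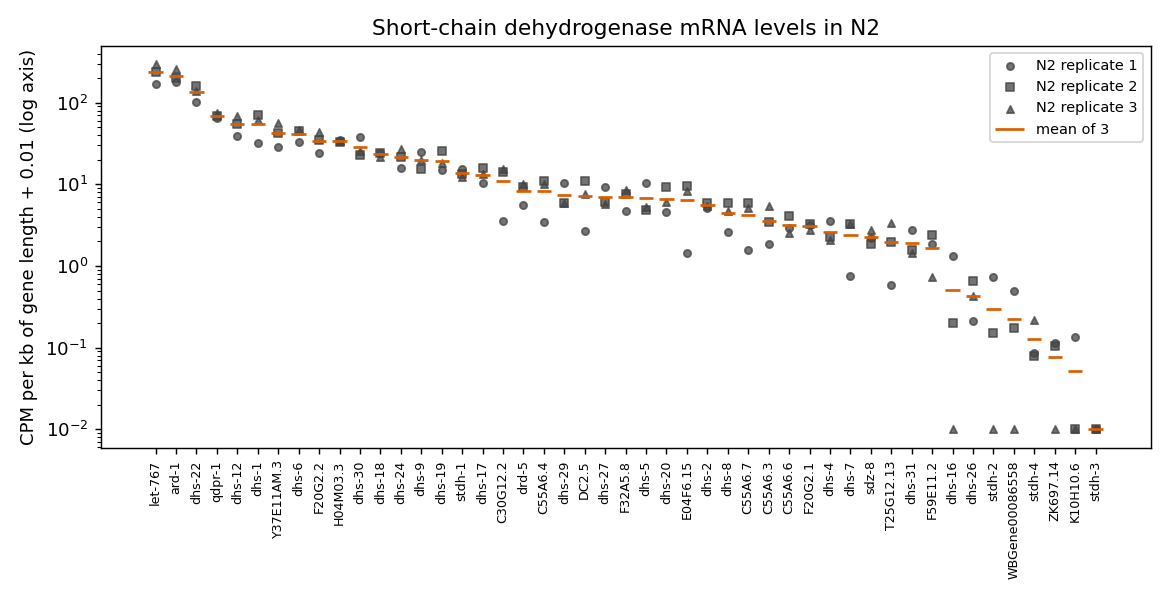
Level of each of the 47 genes in the 3 N2 libraries, as CPM per kb of gene length plus 0.01 on a log axis, ordered by the mean (line); symbols are the replicates. The order runs from let-767 and ard-1 at the top to stdh-3, which had 0 counts in all N2 libraries, and several genes of low level have a replicate 1 that lies away from the other 2.

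In ok302, 13 of the 43 tested genes changed against N2, 7 of them higher and 6 lower (edgeR quasi-likelihood test, Benjamini-Hochberg adjusted p under 0.05). Of all 17217 genes tested, 8.45% were called higher and 15.4% lower, so the members' total lay near that of all genes. In ust221, 4 were higher and 1 lower, where 1.03% of all genes were called higher and 0.761% lower. In ust223, 6 were higher and 0 lower, where 1.13% of all genes were called higher and 0.227% lower; 0 members were lower at an unadjusted p under 0.05, and 0 by DESeq2. In ust222, 0 were called, where 0.00581% of all genes, 1 gene, were called in either direction. The median log2 fold change of the 43 was 0.08 in ok302, 0.45 in ust221, -0.15 in ust222 and 0.08 in ust223, beside 0.10, -0.09, -0.17 and -0.08 for all genes. In ust221, 33 of 43 had a positive log2 fold change, against 7750 of 17217 genes. The same was true of 12 of 12 aldehyde dehydrogenases (median 0.47), 14 of 14 genes of fatty acid synthesis and elongation (0.40) and 21 of 27 genes of the related PF13561 group (0.34), so the direction is not particular to the members. These comparisons share the 3 N2 libraries. In the 12 libraries, 46 members were tested and 24 were called in ok302, 9 in ust221, 0 in ust222 and 9 in ust223, where 49.9%, 13.6%, 0.0164% and 11.2% of all 18343 genes were called. With library totals as the only scaling, the split of called members was 9 higher and 3 lower in ok302 and 3 higher and 2 lower in ust221. The share of all genes called with that scaling was not computed.

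**Figure D2:**
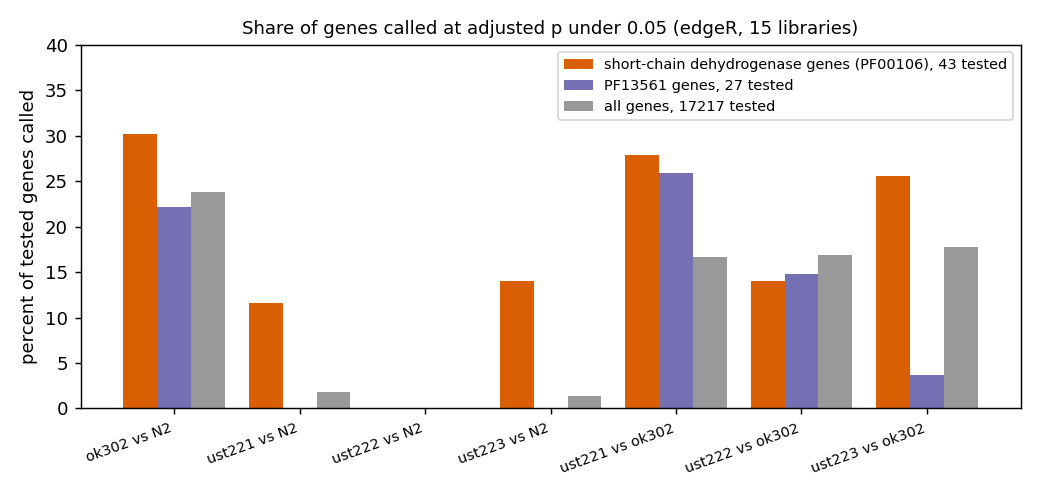
Percent of tested genes with an adjusted p under 0.05 in 7 comparisons (bars from 0) for the 43 tested short-chain dehydrogenase genes, 27 genes of the related PF13561 group and all 17217 genes. In ust221 and ust223 against N2 the first bar is above the bar of all genes and the PF13561 group has no bar; in ok302 the 3 bars lie between 22.2% and 30.2%.

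Over the 4 alleles, 14 genes were called at least once, 29 never, and none in opposite directions. Higher calls in ok302, ust221 and ust223 were shared by 4 genes: dhs-26, dhs-2, C30G12.2 and drd-5. A further gene, dhs-20, was higher in ok302 and ust223, and H04M03.3 was lower in ok302 and ust221. The same counts over alleles were not made for all genes, and the comparisons share the N2 libraries. Whether this sharing is more than that of other genes was therefore not tested.

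The gene dhs-26 (WBGene00000989, chromosome X, 3360722 to 3362493, minus strand) was under 1 CPM in every N2 library and highest in ust223. The N2 libraries held 0.235, 0.751 and 0.487 CPM. The ust223 libraries held 44.7, 37.1 and 37.8 CPM, the ust221 libraries 13.3, 13.1 and 6.37, and the ok302 libraries 5.44, 9.57 and 4.34. All 9 of these libraries lay above every N2 library, and the ust223 libraries lay above all others. Against N2 the log2 fold change was 6.32 ± 0.74 in ust223 (± SE, edgeR adjusted p = 0.00117), 4.45 ± 0.69 in ust221 (adjusted p = 0.0124) and 3.70 ± 0.67 in ok302 (adjusted p = 0.00191). These calls held without any single library of the genotypes compared, and in the 12 libraries the values were 6.06, 4.15 and 3.35. The ust222 libraries held 5.71, 0.744 and 4.86 CPM, so replicates 1 and 3 were high and replicate 2 lay at the level of N2. The ust222 difference, 2.93 ± 0.65, was not called (adjusted p = 0.394, unadjusted p = 0.000571). It was called by DESeq2 (adjusted p = 0.000769), without N2 replicate 1 (0.0457) and without ust222 replicate 2 (0.0174). In the 12 libraries, with ust222 replicate 2 alone, it was 0.36 (adjusted p = 0.856). The 2 high ust222 libraries are those that stood apart in sperm and molting genes. N2 replicate 1, which stood apart with them, held 6 dhs-26 counts, and N2 replicates 2 and 3 held 21 and 9, all near the floor. The part of whatever set those libraries apart was not tested for dhs-26.

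The gene dhs-2 (WBGene00000966, chromosome I) had its highest levels in ust223. It held 6.61, 7.65 and 6.98 CPM in N2 and 51.4, 49.4 and 40.2 CPM in ust223, a gap with no overlap. The ok302 libraries held 13.3, 13.6 and 12.04 CPM, the ust221 libraries 17.2, 13.4 and 10.9 and the ust222 libraries 10.5, 8.13 and 9.47; all 9 lay above N2 and below ust223. The log2 fold change against N2 was 2.73 ± 0.22 in ust223 (edgeR adjusted p = 6.18e-05), 0.87 ± 0.21 in ok302 (adjusted p = 0.0101) and 0.97 ± 0.21 in ust221 (adjusted p = 0.038). In the 12 libraries the values were 2.78, 0.83 and 0.98. The ust221 call was lost without N2 replicate 2 or 3 or ust221 replicate 1 or 2 (0.88 to 1.04, adjusted p 0.0666 to 0.0892) and with library totals as the only scaling (0.68, adjusted p = 0.0695). It did not pass in ust222 (0.40 ± 0.21, adjusted p = 0.637).

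The gene C30G12.2 (WBGene00016274, chromosome II, 7290373 to 7291882, plus strand) had like levels in ust221 and ust223. It held 3.72, 15.02 and 16.02 CPM in N2, 113, 97.1 and 70.5 in ust221 and 91.1, 94.03 and 86.5 in ust223. In ok302 the 3 libraries were spread widely, at 40.4, 78.1 and 25.1 CPM, and in ust222 they held 20.4, 31 and 16.2. Every library of the 4 alleles was above every N2 library, by a small margin in ust222 replicate 3. The log2 fold change against N2 was 3.02 ± 0.51 in ust221 (edgeR adjusted p = 0.0174), 2.97 ± 0.51 in ust223 (adjusted p = 0.011) and 2.05 ± 0.49 in ok302 (adjusted p = 0.0099). Without ok302 replicate 2 the ok302 value was 1.49 (adjusted p = 0.0518). N2 replicate 1 was the lowest, and in the 12 libraries the values were 2.66, 2.64 and 1.63. The ust222 difference did not pass (0.96 ± 0.48, adjusted p = 0.637).

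The gene drd-5 (WBGene00018885, chromosome X, 8344700 to 8346408, minus strand) moved less. It held 6.96, 11.6 and 12.4 CPM in N2, 35.1, 30.8 and 26.7 in ust221, 20.3, 30.8 and 20.1 in ust223, 22.3, 17.9 and 17.3 in ok302 and 11.04, 16.5 and 12.01 in ust222. The ust221, ust223 and ok302 libraries were all above N2, and those of ust222 overlapped N2. The log2 fold change was 1.58 ± 0.27 in ust221 (edgeR adjusted p = 0.0201), 1.2 ± 0.27 in ust223 (0.0488) and 0.89 ± 0.27 in ok302 (0.0299), and in the 12 libraries 1.43, 1.08 and 0.68. The ust221 call held without any single library. The ust223 call was lost without N2 replicate 2 or 3 or any 1 ust223 library (0.96 to 1.34, adjusted p 0.0878 to 0.245), and the ok302 call without ok302 replicate 1 (0.70, adjusted p = 0.0768) or 2 (0.93, adjusted p = 0.0589).

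The gene dhs-20 (WBGene00000983, chromosome V, 11602294 to 11604563, minus strand) separated ust223 and ok302 from the other genotypes. It held 37.02, 41.1 and 39.3 CPM in ust223 and 29.7, 22.2 and 24.8 in ok302, against 6.69, 13.4 and 8.88 in N2, 12.5, 11.1 and 12.9 in ust221 and 7.61, 9.85 and 6.67 in ust222. The ust221 and ust222 libraries overlapped N2. The log2 fold change against N2 was 2.02 ± 0.26 in ust223 (edgeR adjusted p = 0.00191) and 1.40 ± 0.26 in ok302 (adjusted p = 0.00204), or 1.90 and 1.2 in the 12 libraries, and neither call rested on 1 library. It overlaps idpp-16 by 82 bases on the same strand. That gene was also higher in ok302 (1.17, adjusted p = 0.0153) but not in ust223 (-0.31). dhs-20 also overlaps F35B12.9 by 65 bases on the opposite strand, and F35B12.9 was not called in ok302 (0.70, edgeR adjusted p = 0.167) or ust223 (-0.27).

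**Figure D3:**
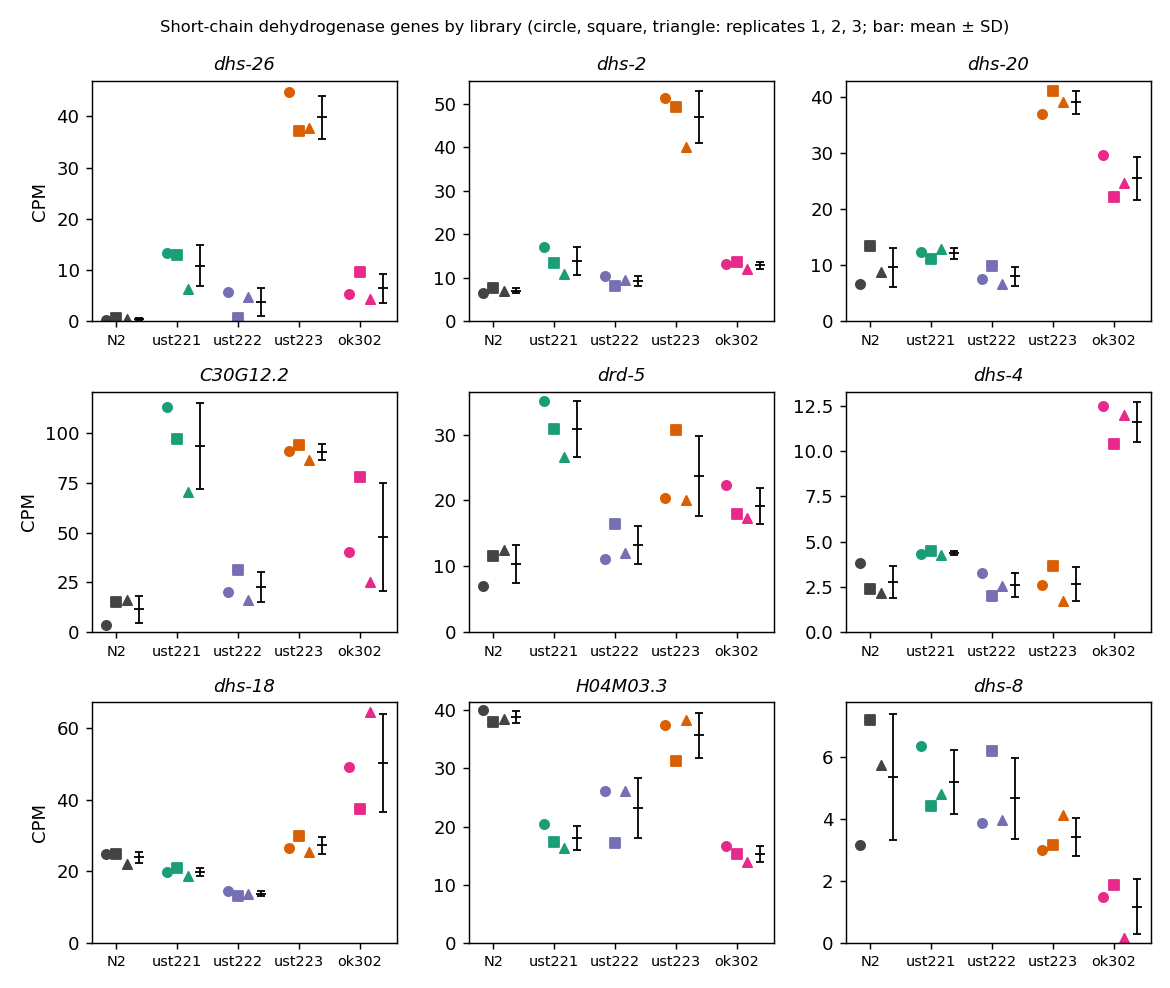
CPM of 9 genes in each of the 15 libraries by genotype (circle, square and triangle are replicates 1, 2 and 3; bars are mean ± SD of 3 libraries), each panel with its own axis from 0. dhs-26, dhs-2 and dhs-20 are highest in ust223, dhs-4 and dhs-18 in ok302, and H04M03.3 and dhs-8 are lowest in ok302.

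Of let-767, ard-1, qdpr-1, stdh-1, dhs-6, dhs-9, dhs-16 and dhs-19, only stdh-1 was called against N2 in the 15 libraries, in ust223. stdh-1 belongs to the steroid dehydrogenase family related to let-767. It held 17.2, 14.9 and 13.7 CPM in N2 and 27.99, 30.9 and 31.2 in ust223, without overlap, and 20.3, 19.3 and 23.1 in ok302. The log2 fold change was 0.98 ± 0.20 in ust223 (edgeR adjusted p = 0.0304; 1.16 in the 12 libraries) and 0.45 ± 0.20 in ok302 (adjusted p = 0.12; called with library totals as the only scaling, 0.64, adjusted p = 0.0451, and in the 12 libraries, 0.55, adjusted p = 0.0347). The ust223 call was lost without N2 replicate 2 or 3 or any 1 ust223 library (0.90 to 1.02, adjusted p 0.0892 to 0.14). Its relative stdh-2 was at 0.00 to 0.82 CPM in 14 libraries and at 3.46 in ok302 replicate 2, and was called in ok302 without N2 replicate 1 (4.16, adjusted p = 0.0412). stdh-1 overlaps C06B3.6 by 3 bases on the opposite strand. C06B3.6 was higher in ok302 (1.09, edgeR adjusted p = 0.0129) but was not called in ust223 (0.81, adjusted p = 0.249).

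The 3 most abundant of these enzymes, let-767, ard-1 and qdpr-1, were spread widely in ust221. let-767 held 701, 615 and 412 CPM in ust221, 250.1, 343 and 431 in N2 and 267, 267 and 277 in ok302. ard-1 held 399, 348 and 228 CPM in ust221, 165, 183 and 237 in N2 and 138, 163 and 129.6 in ok302. qdpr-1 held 128, 89.9 and 62.6 CPM in ust221, 54.5, 58.2 and 64.1 in N2 and 44.6, 45.01 and 41.6 in ok302. In all 3 genes ust221 replicate 1 was the highest library of the 15 and ust221 replicate 3 overlapped N2. Against N2 the ust221 log2 fold changes were 0.75 ± 0.26, 0.74 ± 0.21 and 0.67 ± 0.23 (edgeR adjusted p = 0.132, 0.0816 and 0.121), which did not pass. Without ust221 replicate 3 the ard-1 and qdpr-1 differences passed (0.93, adjusted p = 0.026, and 0.88, adjusted p = 0.0346). In ok302, ard-1 was lower than N2 without N2 replicate 1 (-0.54, adjusted p = 0.0484). Against ok302 they passed: 1.09 ± 0.26, 1.18 ± 0.21 and 1.1 ± 0.23 (adjusted p = 0.0174, 0.00682 and 0.0101; 1.15, 1.24 and 1.15 in the 12 libraries). The let-767 call was lost without ust221 replicate 1 (0.86, adjusted p = 0.0625) or ok302 replicate 2 (1.09, adjusted p = 0.0546), and with library totals as the only scaling (0.59, adjusted p = 0.0502). let-767 overlaps rpn-13 by 114 bases on the same strand, and rpn-13 was lower in ok302 than in N2 (-1.0, adjusted p = 0.00185).

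dhs-16, which acts on a steroid intermediate of dafachronic acid synthesis, was rare and uneven. Its N2 libraries held 44, 7 and 0 counts, or 1.72, 0.2504 and 0 CPM, and its level was 4.63, 1.95 and 0.798 CPM in ust223, 2.28, 0.186 and 2.24 in ust222, 1.46, 2.07 and 1.22 in ok302 and 0.203, 0.056 and 0.151 in ust221. No allele passed against N2 (edgeR adjusted p 0.326 to 0.752). Without N2 replicate 1, which held most of its N2 counts, it was higher in ok302 (3.48, adjusted p = 0.0406), and in the 12 libraries in ok302 (3.45, 0.00997) and ust223 (4.17, 0.0147). dhs-6, which adds a sterol carrier domain, was between 48.6 and 90.7 CPM in all 15 libraries and was not called in any allele. dhs-19, a lipid droplet protein, held 15.6, 26.7 and 19.05 CPM in N2, 31.7, 30.2 and 27.4 in ust223, 27.2, 28.5 and 22.8 in ust221 and 14.6, 16.4 and 12.7 in ok302. It was not called against N2, except lower in ok302 without N2 replicate 1 (-0.64, edgeR adjusted p = 0.0263) and in the 12 libraries (-0.64, 0.0178). It was higher than ok302 in ust223 (1.03 ± 0.22, adjusted p = 0.00746) and in ust221 (0.84 ± 0.22, adjusted p = 0.0232). The ust221 call was lost without ust221 replicate 1 (0.74, adjusted p = 0.0913) or 2 (0.66, adjusted p = 0.10) and with library totals as the only scaling (0.36, adjusted p = 0.30). dhs-9 held 25.9, 15.8 and 20.7 CPM in N2 and 36.9, 40.6 and 37.1 in ust223, above every N2 library, and did not pass (0.88 ± 0.27, adjusted p = 0.173), except in the 12 libraries (1.16, adjusted p = 0.00382).

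ok302 had 2 further higher genes that the ust alleles did not share. dhs-4 (WBGene00000968, chromosome I) held 12.5, 10.4 and 12 CPM in ok302 and 3.795, 2.36 and 2.16 in N2, and no library of the other genotypes exceeded 4.46. dhs-18 (WBGene00000981, chromosome V, 11045696 to 11046899, minus strand) held 49, 37.4 and 64.6 CPM in ok302, 24.7, 24.9 and 22.03 in N2 and 14.4, 13.2 and 13.6 in ust222, whose libraries were the lowest. The log2 fold changes of ok302 against N2 were 2.06 ± 0.35 for dhs-4 (edgeR adjusted p = 0.00143; 2.36 in the 12 libraries) and 1.08 ± 0.20 for dhs-18 (adjusted p = 0.00201; 1.11). Neither call rested on 1 library. The difference itself was tested: dhs-4 was lower than in ok302 in ust221 (-1.41 ± 0.35, adjusted p = 0.0179), ust222 (-2.15 ± 0.35, 0.00361) and ust223 (-2.13 ± 0.35, 0.002). dhs-18 was likewise lower in ust221 (-1.35 ± 0.20, adjusted p = 0.0037), ust222 (-1.87 ± 0.20, 0.000632) and ust223 (-0.88 ± 0.20, 0.00839). The dhs-4 call in ust221 was lost without ust221 replicate 1 or 2 or ok302 replicate 1 or 3 (-1.54 to -1.3, adjusted p 0.0649 to 0.0879). The dhs-18 call in ust223 was lost without ok302 replicate 3 (-0.58, adjusted p = 0.0866).

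The genes that fell in ok302 in the 15 libraries were H04M03.3, dhs-8, dhs-24, Y37E11AM.3, dhs-22 and dhs-17. dhs-1 was called lower only without N2 replicate 1 (-0.81, edgeR adjusted p = 0.000161) or ok302 replicate 1 (-0.64, 0.0357) or 3 (-0.61, 0.0428), among the fits without 1 library. dhs-12 was likewise called lower without N2 replicate 1 (-0.79, 0.0142) or ok302 replicate 1 (-0.77, 0.0451). H04M03.3 (WBGene00019153, chromosome IV, 5891565 to 5893329, plus strand) held 40.02, 37.9 and 38.5 CPM in N2, 16.7, 15.3 and 13.9 in ok302, 20.4, 17.4 and 16.3 in ust221, 26.2, 17.2 and 26.1 in ust222 and 37.4, 31.2 and 38.4 in ust223. The ok302, ust221 and ust222 libraries were all below N2, and those of ust223 overlapped it. Its log2 fold change was -1.34 ± 0.20 in ok302 (edgeR adjusted p = 0.000638; -1.31 in the 12 libraries), -1.1 ± 0.20 in ust221 (adjusted p = 0.0202; -1.01) and, not passing, -0.74 ± 0.19 in ust222 (adjusted p = 0.417). The ust221 call was lost without N2 replicate 3 or ust221 replicate 1 or 2 (-1.12 to -1.03, adjusted p 0.0524 to 0.0938). Against ok302, ust223 was higher by 1.22 ± 0.20 (adjusted p = 0.00179).

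dhs-8 was low everywhere and lowest in ok302, at 1.46, 1.86 and 0.162 CPM against 3.17, 7.19 and 5.74 in N2. Its log2 fold change was -2.20 ± 0.62 (edgeR adjusted p = 0.0209; -2.46 in the 12 libraries). It did not pass without N2 replicate 2 (-1.94, adjusted p = 0.064) or 3 (-2.17, adjusted p = 0.0546). The other 4 are among the better expressed members and fell by less than 2-fold. dhs-22 held 94.5, 82.7 and 102 CPM in ok302 and 117, 185 and 161 in N2 (-0.73 ± 0.17, adjusted p = 0.00802; -0.89 in the 12 libraries), and that call did not rest on 1 library. dhs-24 held 19.9, 29.4 and 14.99 and 29.5, 40.2 and 50.4 CPM (-0.90 ± 0.26, adjusted p = 0.0235; -1.07), and did not pass without N2 replicate 3 (-0.72, adjusted p = 0.103). Y37E11AM.3 held 39.3, 41.4 and 33.2 and 44.1, 65.6 and 86.7 CPM (-0.79 ± 0.24, adjusted p = 0.0285; -1.0), and the call was lost without N2 replicate 2 or 3 or ok302 replicate 2 (-0.86 to -0.55, adjusted p 0.0542 to 0.134). dhs-17 held 14.5, 17.1 and 13.5 and 18.3, 27.7 and 23.2 CPM (-0.62 ± 0.20, adjusted p = 0.0384; -0.75), and did not pass without N2 replicate 2 (-0.47, adjusted p = 0.136) or 3 (-0.63, adjusted p = 0.0869). With library totals as the only scaling, dhs-22, dhs-24 and dhs-17 were not called (-0.52, -0.66 and -0.40). dhs-22 overlaps set-31 by 26 bases and dhs-17 overlaps picc-1 by 8 bases, on the opposite strand, and both partners were lower in ok302 (-0.93, adjusted p = 0.0239, and -0.99, adjusted p = 0.0247).

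Fits of the 6 libraries of a pair of genotypes alone, which have fewer residual degrees of freedom, called 7 members in ok302, 0 in ust221 (0 of 41 tested) and 2 in ust223. The share of all genes called in these fits was not computed. The genes dhs-26, dhs-20, dhs-18, dhs-4, dhs-22, H04M03.3 and Y37E11AM.3 passed in ok302 and dhs-26 and dhs-2 in ust223, while C30G12.2 and drd-5 were not called against N2 in any of these fits.

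**Figure D4:**
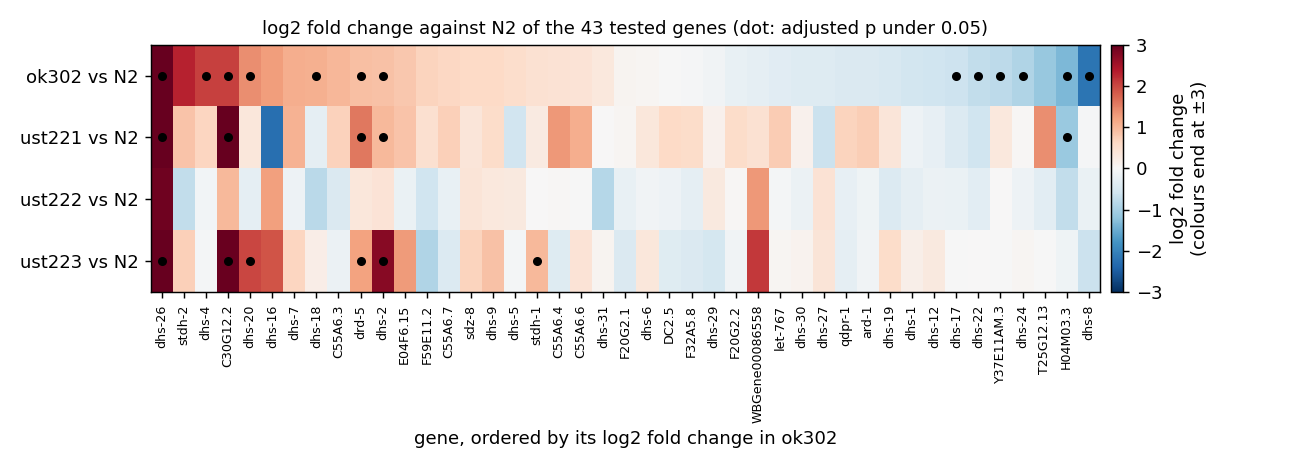
log2 fold change against N2 of the 43 tested genes (columns, ordered by the ok302 value) in the 4 alleles (rows), with colours that end at 3 in either direction and a dot where the adjusted p was under 0.05. Dots in ok302 stand at both ends of the order, those of ust223 only among higher values, and the ust222 row has none.

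Each ust allele was also compared with ok302, whose 3 libraries these comparisons share. In ust221, 9 members were higher and 3 lower than in ok302, where 10.9% and 5.85% of all genes were called. In ust222, 2 were higher and 4 lower (7.62% and 9.25% of all genes), and in ust223, 9 were higher and 2 lower (12.2% and 5.58%). In the 12 libraries 21, 15 and 24 of 46 members were called, beside 41%, 31.7% and 42.8% of all genes. With library totals as the only scaling, 2 members were higher and 4 lower in ust221, 1 higher and 4 lower in ust222, and 7 higher and 3 lower in ust223. In ust222 against ok302, size factors of the DESeq2 kind gave 5 higher and 4 lower. With library totals or these size factors, the share of all genes called was not computed.

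The gene that separated ust223 from ok302 with the smallest p was dhs-2 (1.86 ± 0.21, edgeR adjusted p = 0.000526), followed by H04M03.3, and dhs-26 differed by 2.63 ± 0.61 (adjusted p = 0.0109). dhs-20 was lower than in ok302 in ust221 (-1.07 ± 0.25, adjusted p = 0.016) and ust222 (-1.67 ± 0.26, adjusted p = 0.00267). dhs-8 was higher than in ok302 in ust221 (2.15 ± 0.62, adjusted p = 0.032) and ust222 (2.00 ± 0.61, adjusted p = 0.0411). The ust221 call of dhs-8 was lost without any 1 ust221 library (1.91 to 2.21, adjusted p 0.0508 to 0.115), and the ust222 call without ust222 replicate 1 or 2 (1.75 to 2.12, adjusted p 0.0616 to 0.0716). With library totals as the only scaling neither was called (1.65, adjusted p = 0.0886, and 1.88, adjusted p = 0.0513). Y37E11AM.3 was higher than in ok302 in ust221 (1.09 ± 0.24), ust222 (0.80 ± 0.24) and ust223 (0.77 ± 0.24), with adjusted p 0.0118, 0.0344 and 0.0379. The ust222 and ust223 calls of this gene were lost without ok302 replicate 2 (adjusted p 0.0662 and 0.0733), the ust222 call without ust222 replicate 2 (0.0613), and the ust223 call without any 1 ust223 library (0.0874 to 0.0927). With library totals the ust221 call was lost (0.59, adjusted p = 0.0505). T25G12.13 held 6.301, 4.85 and 3.35 CPM in ust221 and 0.962, 0.582 and 0.932 in ok302 (2.54 ± 0.75, adjusted p = 0.0349). That call was lost without ust221 replicate 1 or 2 or any 1 ok302 library (2.23 to 2.72, adjusted p 0.055 to 0.114), and with library totals (2.04, adjusted p = 0.0656).

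The 3 ust alleles were compared with each other after their values had been seen. Between ust223 and ust221, 6 of 43 members were called, where 3.76% of all genes were. dhs-2 was higher in ust223 by 1.76 ± 0.21 (edgeR adjusted p = 0.00445) without resting on 1 library, and dhs-20 by 1.69 ± 0.26 (adjusted p = 0.0103; 0.0512 without ust223 replicate 1 and 0.0537 without replicate 3). H04M03.3 was higher in ust223 (0.98 ± 0.20), and qdpr-1 (-0.94 ± 0.23), ard-1 (-0.83 ± 0.21) and C55A6.4 (-1.68 ± 0.42) were lower, with adjusted p 0.0239, 0.0402, 0.0482 and 0.0425. Each of these 4 calls was lost without any 1 of 5 libraries, all but ust221 replicate 3 (adjusted p 0.0552 to 0.182), and ard-1 was also lost with the replicate number as a block (adjusted p = 0.0631). With library totals as the only scaling, ard-1 and qdpr-1 were not called (adjusted p 0.0557 and 0.0535). dhs-26 was not called between ust223 and ust221 (1.87 ± 0.59, adjusted p = 0.0899), although their libraries did not overlap; it was called with library totals (2.28, adjusted p = 0.0353) and in the 12 libraries (1.91, adjusted p = 0.000937). Between ust223 and ust222, 4 of 43 were called, beside 0.482% of all genes: dhs-2 (2.33 ± 0.22, adjusted p = 0.000535), dhs-20 (2.28 ± 0.26, 0.003), dhs-26 (3.40 ± 0.63, 0.0363) and dhs-18 (0.99 ± 0.20, 0.0449). The dhs-26 and dhs-18 calls were lost without any 1 of 5 libraries, all but ust222 replicate 2 (adjusted p 0.0936 to 0.385). In the 12 libraries the dhs-26 value was 5.70 and dhs-18 was not called (adjusted p = 0.0633), nor was it with library totals (0.0716). Between ust221 and ust222 edgeR called 0 members, where 0.0174% of all genes were called. At an unadjusted p under 0.05 there were 20 members, and DESeq2 called 10. The shares of all genes for these 2 counts were not computed, so they cannot be read as particular to the members. Without ust222 replicate 2, edgeR called 13 members, 10 higher and 3 lower, where 21.4% of all genes were called, and without ust221 replicate 3 it called 3, where 1.81% were.

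In the C55A6 run on chromosome V, no gene was called against N2 in any allele in the 15 libraries. C55A6.4, the most abundant of the 5 genes, held 3.91, 12.5 and 11.5 CPM in N2, 24.3, 26.8 and 17.5 in ust221, 6.91, 8.07 and 6.35 in ust223 and 14.9, 12.5 and 10.4 in ok302. All ust221 libraries were above N2, but the difference did not pass (1.29 ± 0.41, edgeR adjusted p = 0.105), and the same was found for C55A6.6 (1.09 ± 0.35, adjusted p = 0.107). Both passed in the 12 libraries (0.99, adjusted p = 0.0213, and 1.11, adjusted p = 0.0264). C55A6.3 held 6.74, 5.09 and 5.92 CPM in ok302, 1.53, 2.897 and 4.44 in N2 and 1.64, 2.79 and 2.15 in ust222. With library totals it was called higher in ok302 than in N2 (1.25, adjusted p = 0.0275). It was lower in ust222 than in ok302 (-1.43 ± 0.43, adjusted p = 0.038), but not in the 12 libraries (-0.97, adjusted p = 0.118) nor without ust222 replicate 1 or 3 or any 1 ok302 library (-1.53 to -1.09, adjusted p 0.0664 to 0.13). sdz-8, named as a transcript of the early embryo that depends on the factor SKN-1, was at 1.54 to 3.71 CPM in all 15 libraries. C55A6.7 held 1.57, 5.94 and 5.09 CPM in N2 and 6.402, 6.59 and 6.32 in ok302 and was not called.

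In the neighbouring pairs, levels were often far apart. stdh-3, beside stdh-1, had 20 counts over all 15 libraries. K10H10.6, paired with dhs-8, had 25. dhs-30 held 40.1, 24.5 and 26.8 CPM in N2 and was not called in any allele, while T25G12.13 was at 0.548, 1.82 and 3.14 CPM in N2. In dhs-7 and E04F6.15 both genes were lowest in N2 replicate 1, at 0.98 and 1.53 CPM, and low in ust222 replicate 1, at 1.04 and 5.15. E04F6.15 held 17.2, 16.3 and 16.9 CPM in ust223, above every N2 library, without passing (1.29 ± 0.48, edgeR adjusted p = 0.314). Without N2 replicate 1 it passed (0.90, adjusted p = 0.0438).

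Other dehydrogenase and lipid genes were set beside these by count. Of 31 genes with the related label PF13561 and not PF00106, 27 were tested, and 2 rose and 4 fell in ok302. W03F9.9 (3.05 ± 0.84, edgeR adjusted p = 0.0187) and dhs-21 (0.77 ± 0.26, 0.0492) rose, and dhs-25 (-2.92 ± 0.80, 0.0188), Y47G6A.21 (-0.87 ± 0.30, 0.0469), dhs-13 (-0.69 ± 0.23, 0.042) and R119.3 (-0.68 ± 0.21, 0.0321) fell. edgeR called 0 of these 27 in ust221, ust222 and ust223; at an unadjusted p under 0.05 there were 5, 0 and 4, and DESeq2 called 4, 0 and 3. Of 12 tested genes of the aldehyde dehydrogenase family, alh-13 rose (1.38 ± 0.39, adjusted p = 0.0209) and alh-7 fell (-0.86 ± 0.25, 0.0265) in ok302, and alh-12 rose in ust221 (1.04 ± 0.22, 0.0376). Of 14 genes of fatty acid synthesis and elongation, the pathway of let-767, elo-4 rose (1.69 ± 0.37, adjusted p = 0.00564) and elo-3 (-1.09 ± 0.18, 0.00131), art-1 (-0.69 ± 0.21, 0.0298) and pod-2 (-0.55 ± 0.18, 0.0473) fell in ok302. Of 9 tested genes of the dafachronic acid pathway, the pathway of dhs-16, the cytochrome P450 gene daf-9 rose in ok302 (1.60 ± 0.53, adjusted p = 0.0416). The zinc alcohol dehydrogenase adh-5 fell in ok302 (-0.66 ± 0.18, adjusted p = 0.019), as 1 of 2 tested. For ust222 and ust223 edgeR called 0 genes of these last 4 lists. At an unadjusted p under 0.05 the aldehyde dehydrogenases gave 2 genes in each of these alleles and the elongation genes 1 in ust222, and DESeq2 called 2 aldehyde dehydrogenases in ust223. Shares of all genes at the unadjusted p or by DESeq2 were not computed.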

How the data were processed

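The authors deposited 1 table of unnormalized counts, with a row per gene and a column per library, and HISAT2 2.0.5 appears among the tools in the submitters' processing notes. Which program counted the reads, with what strand setting, build and annotation, is not given in the sources used here. Its gene length column, a value of another kind set by the authors, served for CPM per kb. The 207 genes without a WormBase identifier held at most 0.0475% of a library's counts and stayed out. The test was edgeR 4.0.16 under R 4.3.3 (filterByExpr, TMM scaling, 1 quasi-likelihood fit of all 15 libraries with a mean per genotype, Benjamini-Hochberg adjustment over 17217 genes). SE is the absolute log2 fold change over the square root of F, and CPM uses TMM-scaled library sizes.

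The fit was tested on simulated data with this spread (common biological coefficient of variation 0.477) for ok302 against N2. The only changed genes among 16829 were 100 changed 2-fold, of which 8% were called, and 100 changed 4-fold, of which 43% were called. In the data 23.8% of all genes were called in ok302, and the adjustment is less strict where more genes change. These percentages therefore do not give the power of that test, and genes that were not called may still differ. Members, gene lists and the 12-library alternative were chosen with earlier results of these data known. Named genes are up to 10 members per direction called against N2 with a mean of at least 10 counts and groups that do not overlap, those called alike in several alleles, up to 5 per direction against ok302, the 10 highest in N2, members of known role, and neighbours of these; other names were chosen after their values were seen.

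Replicate numbers were checked for pairing by the correlation of same-numbered deviations. Between ust223 and ust221 all 3 were above 0.1 (0.14, 0.25 and 0.32), so blocked values are given beside any call they change; in no other comparison were all 3 above it. Replicates differed by more than counting noise in every pair. Alternatives were DESeq2 1.42.0, its size factors, library totals, other filters, fewer libraries, the replicate block and leaving out each library. Gene symbols came from a name table that matched 44017 identifiers and left 3094 without one; all 47 members lie on the chromosome that Ensembl release 115 gives, 16 with identical start and end. No sequences were used here.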

Additional observations from a re-analysis of the deposited data

How the results depend on the processing

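Counts of members called, with 13, 5, 0 and 6 for ok302, ust221, ust222 and ust223 against N2 and 12, 6 and 11 for ust221, ust222 and ust223 against ok302, moved with the choice of libraries, the scaling and the tool. In the 12 libraries, ok302 had 24, ust221 9, and the 3 comparisons with ok302 21, 15 and 24. In fits of 6 libraries, ok302 had 7, ust221 0, ust223 2, and ust223 against ok302 26. DESeq2 called 11 in ust221, 1 in ust222 and 10 in ust222 against ok302. With library totals, ust221 against ok302 had 6. Leaving out each library in turn gave 9 to 19, 3 to 7, 0 to 1 and 4 to 7 against N2, and 5 to 10, 4 to 9 and 7 to 12 against ok302. For these alternative counts, except those of the 12 libraries, the share of all genes called was not computed. Of the 45 results on named genes, none reversed; DESeq2, its size factors in edgeR and the CPM filter cost no call, library totals 9, no filter 3, the 6-library fits 16 and the 12 libraries 1. Library totals moved the median log2 fold change of all genes from 0.10 to 0.30 in ok302, -0.09 to -0.34 in ust221 and -0.11 to -0.56 in ust221 against ok302; the members' median in the last went from 0.24 to -0.23. The cause of these shifts was not tested. With the replicate number as a block, the counts were 12, 4, 0 and 4 against N2 and 10, 5 and 9 against ok302, and 6 named-gene calls were lost; in none of these comparisons did all 3 same-numbered pairs deviate together (ust222 against N2 had correlations of 0.785, 0.729 and -0.64), so the numbers were not taken to pair the libraries. Low counts limit dhs-16, stdh-2 and the 4 untested genes.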

Other observations

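Several members of low level differed between the libraries of N2 and between those of ust222. dhs-5 held 13.97, 6.40 and 7.09 CPM in N2 and 13.8, 5.99 and 13.9 in ust222, so within these 2 genotypes its high libraries were N2 replicate 1 and ust222 replicates 1 and 3. The ok302 libraries, with high sperm sums and molting sums of 332 to 507 CPM, held 10.5, 16.8 and 12.04 CPM of dhs-5. The ust223 libraries, with molting sums of 161 to 249, held 9.61, 9.47 and 7.31. The ust221 libraries, with molting sums of 34.3 to 53.7, held 5.96, 7.20 and 5.24. dhs-7 was low in those 3 libraries, at 0.98, 1.04 and 1.77 CPM, against 4.12 to 7.20 in the other 12. T25G12.13 was at 0.55, 0.63 and 0.52 CPM in them and at 1.82, 3.14 and 3.25 in the other N2 and ust222 libraries, while ok302 was at 0.58 to 0.96. The part of whatever set those libraries apart was not tested.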
